A study of Homo sapiens with 18 samples.

Results

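The regions described here are the places where peaks were called in chromatin that had not been immunoprecipitated, the input libraries. All peaks of input replicate 1 and input replicate 2 on chromosomes 1 to 22 and X were taken, and peaks that shared at least 1 bp were joined. Input replicate 1 held 1358 such peaks and input replicate 2 held 841. Joined, they formed 1503 input regions, against 150028 regions when the peaks of all 18 libraries were joined in the same way. The regions were short, with a median width of 110 bp (range 91 to 1148 bp), and covered 205.4 kb in all.

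The libraries were chromatin immunoprecipitation sequencing (ChIP-seq) of HCT116 INTS11-AID, a human colon cancer line with an auxin-inducible degron fused to INTS11. INTS11 is the endonuclease of the Integrator complex, which cleaves nascent transcripts of RNA polymerase II (Pol II), and IAA is the auxin that triggers degradation of the tagged protein. The study asked where Pol II and its C-terminal phosphorylated forms lie after loss of INTS11. Every library, inputs and controls included, came from this tagged line, and the labels do not say whether it is 1 clone. Antibodies against Pol II and against 2 phosphorylated forms of its C-terminal domain, at tyrosine 1 (Tyr1P) and at serine 2 (Ser2P), each gave 2 numbered Control and 2 numbered IAA libraries. A further 4 Pol II libraries without a number were titled Control, IAA, EGF and IAA+EGF, 1 each. EGF is epidermal growth factor. The file names of the unnumbered libraries titled IAA and EGF name the opposite treatments, so these libraries are called by their titles. The 1 protocol text given for all samples lists 14 h without serum, 1 h of IAA at 500 µM, 30 min of EGF at 100 ng per µl and 1 h of interferon beta at 2000 U, without naming libraries, and the labels give no treatment for the 2 inputs. Nothing in the labels says that replicates came from separate cultures, so p-values over libraries measure the spread between these libraries, which may be technical.

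Input is sheared, crosslinked chromatin that is sequenced without an antibody, so a peak in it marks an excess of mapped fragments that no antibody selected. Centromeres are built on long tandem arrays of alpha satellite DNA and are flanked by other satellites and segmental duplications, sequence that a reference assembly represents with modelled or collapsed copies. Nuclear copies of mitochondrial DNA, and repeat arrays near chromosome ends such as the D4Z4 array that carries DUX4, are other sequence present in more than one copy.

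Few of these regions lay under annotated starts of genes, and the sequences of those that did are shown first because they show how unlike each other these places were. Of 34961 RefSeq windows on GRCh38.p14 (250 bases before to 50 after a start), 4 overlapped an input region. Capitals mark the bases under the input region, and all 4 are on the plus strand, written 5′ to 3′. LINC01596, a long noncoding RNA gene, is shown from chr4:189881265-189881564. FAM230E, also a long noncoding RNA gene, is shown from chr22:18733685-18733984. The windows of the protein-coding genes SMIM10L1, chr12:11170944-11171193, and NUCB1, chr19:48900062-48900311, are shown up to the start.
LINC01596: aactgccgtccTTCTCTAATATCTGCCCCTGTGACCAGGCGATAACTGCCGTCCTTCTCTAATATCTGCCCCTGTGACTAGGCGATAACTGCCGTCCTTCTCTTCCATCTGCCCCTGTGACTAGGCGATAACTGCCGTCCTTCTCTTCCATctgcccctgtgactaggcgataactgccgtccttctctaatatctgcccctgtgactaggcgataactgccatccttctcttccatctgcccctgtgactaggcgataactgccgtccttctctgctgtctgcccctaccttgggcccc
FAM230E: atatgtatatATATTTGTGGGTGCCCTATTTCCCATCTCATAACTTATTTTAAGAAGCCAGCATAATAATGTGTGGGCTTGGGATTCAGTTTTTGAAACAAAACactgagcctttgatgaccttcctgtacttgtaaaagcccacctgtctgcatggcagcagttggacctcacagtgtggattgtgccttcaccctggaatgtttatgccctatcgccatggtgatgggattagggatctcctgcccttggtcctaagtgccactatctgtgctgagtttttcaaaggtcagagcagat
SMIM10L1: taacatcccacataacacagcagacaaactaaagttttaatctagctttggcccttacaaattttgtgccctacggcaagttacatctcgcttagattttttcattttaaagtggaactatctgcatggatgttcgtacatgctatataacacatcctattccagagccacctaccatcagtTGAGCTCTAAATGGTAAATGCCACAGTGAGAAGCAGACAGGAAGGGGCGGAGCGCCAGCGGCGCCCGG
NUCB1: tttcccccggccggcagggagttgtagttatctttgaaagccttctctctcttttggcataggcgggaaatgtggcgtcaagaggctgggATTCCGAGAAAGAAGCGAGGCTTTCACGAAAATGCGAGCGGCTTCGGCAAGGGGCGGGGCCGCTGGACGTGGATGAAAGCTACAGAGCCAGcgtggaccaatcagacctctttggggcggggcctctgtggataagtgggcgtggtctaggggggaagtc

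The LINC01596 window was a tandem repeat. Shifted by 43 bp, 90.3% of its bases matched themselves, whereas the best shift up to 100 bp gave 31.6% in FAM230E, 34.4% in NUCB1 and 35.5% in SMIM10L1. Of all promoter windows, 64 (0.183%) reached 80% self-match, and the median was 34.9%. The first 17 bases of the LINC01596 window, AACTGCCGTCCTTCTCT, occurred 6 times in it. On either strand they were found in 1 of all windows (0.00286%). Region 511, which lies over this repeat inside FRG1-DT, was called in both inputs, with a fold of 8.56 in input replicate 1 and 6.87 in input replicate 2, and was touched by 4 of the 16 immunoprecipitated lists. Folds here and below are the authors' enrichment at a peak's summit within its own list. The regions at the other 3 windows were called in input replicate 1 alone. Within whole windows, bases under the region were 66.9% G or C at SMIM10L1, 59.3% at NUCB1, 52.1% at LINC01596 and 36.2% at FAM230E. At SMIM10L1 these were 118 bases, of which the 68 before the start are shown. The median over all bases of the promoter windows was 58.7%.

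Of 1984 microRNA genes 2 (0.101%) overlapped an input region, a share below the 0.415% of all 59098 genes. The MIR12136 hairpin (chr1:632615-632685, minus strand) lies inside the mitochondrial-like sequence described below, and 42 of its 71 bases were under region 6. All 21 bases of mature hsa-miR-3648 at MIR3648-2 (chr21:8987026-8987046, plus strand) were under region 1427, which was called in input replicate 1 with a fold of 4.85. In the first line capitals mark bases under the region, and in the second they mark the seed, bases 2 to 8.
MIR12136: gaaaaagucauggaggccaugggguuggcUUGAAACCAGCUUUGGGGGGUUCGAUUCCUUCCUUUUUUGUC
MIR3648-2: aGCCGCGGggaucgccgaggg

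The inputs overlapped in their strong peaks and diverged in their weak ones. In input replicate 1, 687 of 1358 peaks (50.6%, exact 95% interval 47.9 to 53.3%) shared at least 1 bp with a peak of input replicate 2. In input replicate 2, 693 of 841 peaks (82.4%, interval 79.7 to 84.9%) shared with input replicate 1. Over both lists together the share was 62.8%. These intervals cover counting error only. By region, 684 were called in both inputs, 671 in input replicate 1 only and 148 in input replicate 2 only. Of the 136 strongest peaks of input replicate 1 by −log10 p all 136 were found in input replicate 2, and of the 136 weakest 13 (9.56%).

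The depth of the inputs, estimated from fold and p, was 5.52 fragments per kb in input replicate 1 and 3.24 in input replicate 2. The deeper library thus had the longer list. The part of depth in the unequal sharing was not tested. At the 684 regions of both inputs the strongest summits lay a median of 9 bp apart, and 649 (94.9%) within 50 bp. Across these regions, which are not independent replicates and share 2 libraries, −log10 p of the inputs correlated at Spearman's rho = 0.80 and fold at 0.83. The median fold was 9.32 for shared and 7.72 for unshared peaks of input replicate 1, and 8.63 and 7.72 in input replicate 2.

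**Figure D1:**
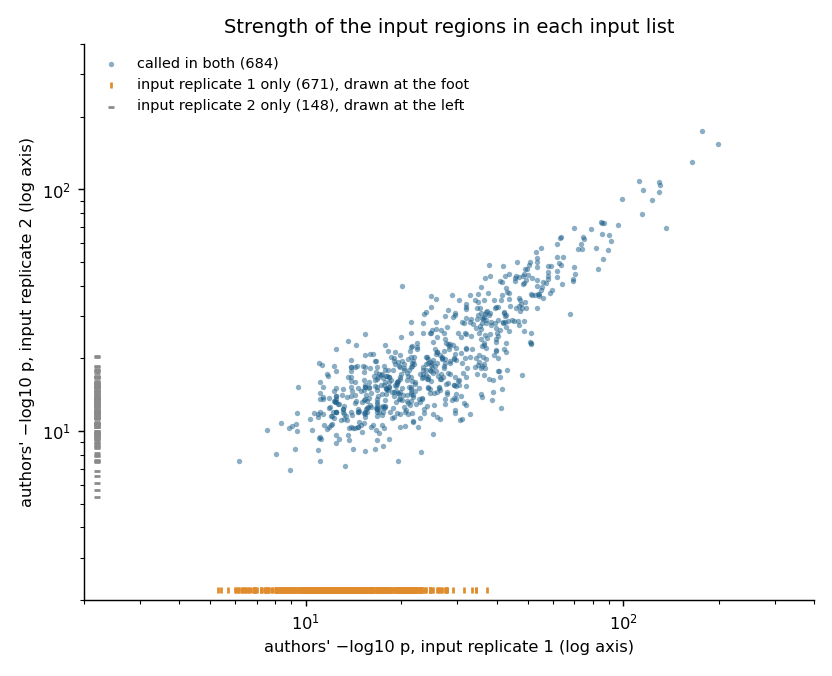
Strength of the input regions in each input list. Each point is 1 of the 684 regions called in both inputs, placed by the authors' −log10 p in input replicate 1 (x) and input replicate 2 (y), both on log axes. Marks at the foot are the 671 regions of input replicate 1 only, and marks at the left the 148 regions of input replicate 2 only, which are absent from the strong end.

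The regions are numbered in genome order. The highest-ranked was region 413 (chr3:93470338-93470824, 487 bp), inside the centromere band and 372940 bp from the nearest gene, RNU6-488P. Rank is the mean within-list percentile of −log10 p in the inputs. Its fold was 21.1 in input replicate 1 and 21.7 in input replicate 2, and all 16 immunoprecipitated lists had a peak there with a fold of 22.6 at the lowest, a median of 24.6 and 25.3 at the highest. Region 1120 (chr13:109424136-109424351) lay far from a centromere, 90.5 Mb off, and 19832 bp from LOC105370359. Its input folds were the highest among the 10 top-ranked regions, 44.5 and 43.5. Its folds in the immunoprecipitated lists spread widely, with 6.04, 19.3 and 35.4 as lowest, median and highest. Region 1250 (chr17:26603831-26604307) had input folds of 43.2 and 38.1 and folds of 9.17 to 24.8 in the 16 lists. Region 1288 (chr18:16431003-16431158) had input folds of 41.1 and 36.6 and was touched by 15 lists, all but Ser2P Control replicate 2.

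Of the other 6 top-ranked regions, 3 lay on chromosome 5, at regions 528, 529 and 553. Regions 528 (chr5:49601484-49601850) and 529 (chr5:49601950-49602203) are neighbours and shared 1 broader peak in each immunoprecipitated list, whose fold was 10.7 to 14.2. Region 1224 (chr17:22521351-22521480) lay 642 bp from MTCYBP13, a pseudogene copy of the mitochondrial cytochrome b gene, with input folds of 35.8 and 34.2. The last were region 855 (chr10:39967546-39967705), with input folds of 29.1 and 33.4, and region 1242 (chr17:25920135-25920284), with 43.6 and 36.7. All 10 top-ranked regions but region 1288 were touched by all 16 lists, and 8 of the 10 lay inside a centromere band.

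Regions of 1 input only ranked lower. The highest of input replicate 1 alone were region 2 (fold 3.92, in MTND2P28), region 1283 (16.9) and region 1187 (7.12), touched by 1, 6 and 14 immunoprecipitated lists. The highest of input replicate 2 alone were region 501 (fold 11.7, in RAP1GDS1, which encodes an exchange factor for small GTPases), region 1475 (11.6) and region 46 (8.68), touched by 6, 0 and 3 lists.

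Along the chromosomes the regions gathered at centromeres. Inside centromere bands lay 841 regions (56.0%), in 92.6 Mb of band. Within 5 Mb of a band lay 167 more (11.1%), and 495 (32.9%) lay farther off. Of the 167, 106 were within 1 Mb of the band. Called in both inputs were 47.4% of the regions in bands, 53.9% of those within 5 Mb and 39.4% of those farther off. By list, 67.2% of the peaks of input replicate 1 and 70.3% of those of input replicate 2 had their summit in or within 5 Mb of a band, 68.7% ± 2.203 (SD, n = 2). In the immunoprecipitated lists it was 6.96% ± 0.489 (SD, n = 16), from 6.38 to 8.14%. Every input value lay above every immunoprecipitated value (two-sided exact permutation p = 0.00654, also after Benjamini-Hochberg adjustment over 3 comparisons, the smallest that 2 against 16 libraries allow). Of protein-coding genes 7.08% lie there.

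**Figure D2:**
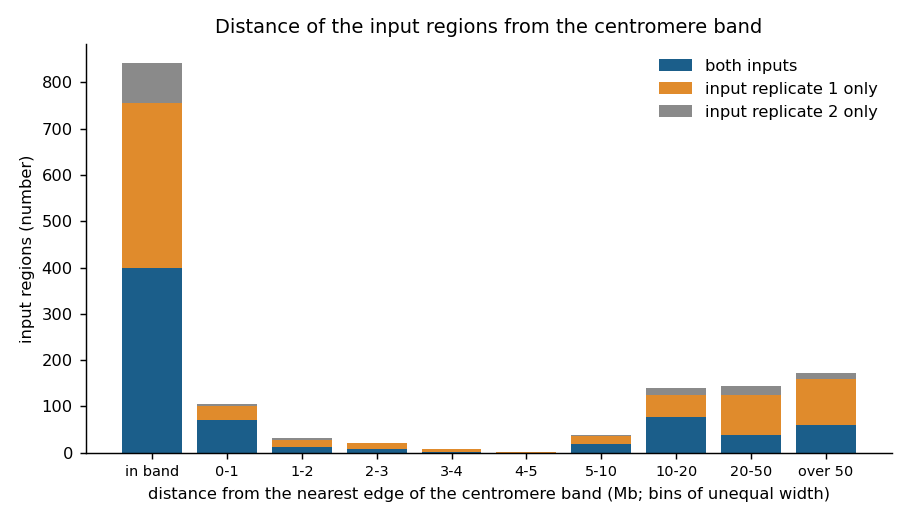
Distance of the input regions from the centromere band. Bars give the number of the 1503 regions inside the band or at a distance from its nearest edge in Mb (bins of unequal width), split by the input that called them. The bar for the band holds 841 regions, and the next, up to 1 Mb, 106.

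The chromosomes held unequal numbers. Chromosome 1 had 305 regions, 194 of them in its band. Chromosomes 10, 9, 18 and 7 followed with 109, 106, 100 and 94, and on chromosome 18, 80 lay in its band. At the low end chromosome 19, the chromosome with 1451 protein-coding genes, had 7 regions, and chromosome 14 had 13. Neither had a region in its band, nor had chromosome 21, whose 20 regions all lay within 5 Mb of it.

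Within these neighbourhoods the regions clustered. They occupied 440 windows of 1 Mb, 315 of them with 1 region, while 40 windows with at least 10 held 908 regions (60.4%). The 5 densest windows held 297 (19.8%). These were chromosome 1 from 124 to 125 Mb with 80 regions, from 123 to 124 Mb with 75 and from 143 to 144 Mb with 63, chromosome 4 from 49 to 50 Mb with 42 and chromosome 10 from 41 to 42 Mb with 37. The windows at 123 and 124 Mb hold no annotated gene. Of the 40 dense windows 37 had their median region in or within 5 Mb of a band. The other 3 were the one at 143 Mb on chromosome 1, one from 60 Mb on chromosome 9 with 27 regions and one from 46 Mb on chromosome 16 with 15. They lay on the long arm 18.1, 15.1 and 7.99 Mb from the band.

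The 63 regions on chromosome 1 formed 1 unbroken chain, each within 10 kb of the next, over 91.2 kb (chr1:143184626-143275841). In it 49 regions were called in both inputs, 50 were touched by at least 1 immunoprecipitated list and 14 by all 16. The chain on chromosome 16 (chr16:46380726-46401606) held 15 regions in 20.9 kb, 7 of them touched by all 16 lists, and that at chr16:34572576-34595726 held 17, all called in both inputs and 10 touched by all 16. The chain at chr9:60601588-60623976 held 11 regions, with 0 touched by all 16. The median distance to the next region was 10002 bp inside bands and 966544 bp for regions farther than 5 Mb.

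With every list held to its 841 strongest peaks, 45.7% of input replicate 1 and 44.5% of input replicate 2 peaks had another summit of their list within 10 kb, 45.1% ± 0.841 (SD, n = 2). The immunoprecipitated lists had 3.09% ± 2.29 (SD, n = 16), from 0.476 to 7.25% (two-sided exact permutation p = 0.00654, the smallest possible). This difference holds at equal list length. In whole lists, which are 15377 to 99275 peaks long after immunoprecipitation, the means were 44.5% for the inputs and 52.8% for the others, and the difference turned to -8.37 percentage points (exact permutation p = 0.418).

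Few input peaks lay at the ends of protein-coding genes. In input replicate 1, 7 of 1358 peaks (0.515%) had their summit no more than 1 kb from an end of a protein-coding gene, and in input replicate 2, 0 of 841, 0.258% ± 0.364 (SD, n = 2). In the immunoprecipitated lists it was 40.9% ± 11.3 (SD, n = 16), from 17.7% in Ser2P IAA replicate 1 to 58.6% in Ser2P Control replicate 2 (two-sided exact permutation p = 0.00654, the smallest possible). The 2 groups did not overlap. The 16 lists were selected by antibodies against Pol II and its phosphorylated forms, and no share for random positions in the genome was taken. With genes of every type in place of protein-coding genes, the means were 3.55% in the inputs and 49.3% in the others. Among 15812 protein-coding genes whose strand was known, 3 input replicate 1 peaks were within 1 kb of a start and 1 of an end.

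**Figure D3:**
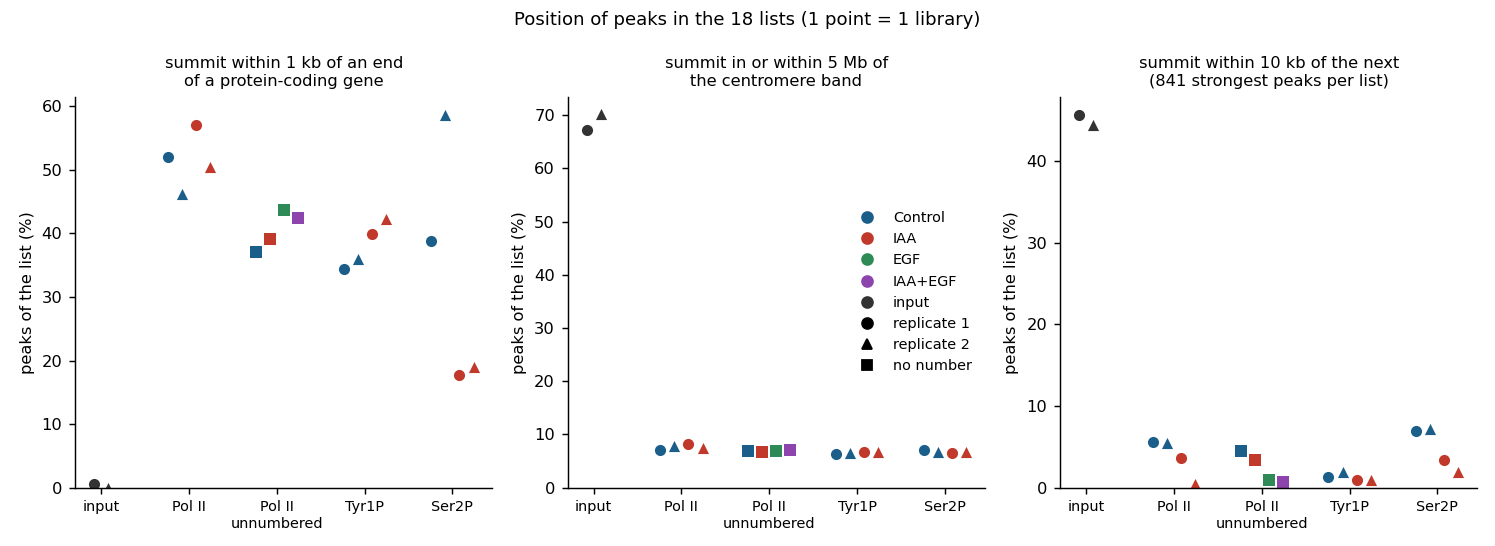
Position of peaks in the 18 lists. Each point is 1 library, grouped by antibody and coloured by treatment. From left to right the y axes give the percent of peaks with a summit within 1 kb of an end of a protein-coding gene, in or within 5 Mb of a centromere band, and within 10 kb of the next summit among the 841 strongest peaks. The 2 inputs lie below all 16 other lists in the first and above them in the others.

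The 7 regions at gene ends were called in input replicate 1 only, and each was touched by at least 1 immunoprecipitated list. Region 1026 (chr12:11171126-11171342, fold 7.96), over the start of SMIM10L1 shown above and within 269 bp of the start of PRH1, a salivary proline-rich protein gene, was touched by 16 lists. Region 1372 (fold 5.41) lay 70 bp from the start of NUCB1, a calcium-binding protein of the Golgi, and was touched by 13. Region 1023 (fold 6.65) lay 222 bp from TRAPPC4, a subunit of a vesicle-tethering complex, and 645 bp from RPS25, a ribosomal protein gene, and was touched by 5. Further regions lay at UNC93B1, which guides Toll-like receptors (region 1016, 2 lists), at the end of MYH13, a myosin of eye muscles (region 1219, 5 lists), and at USP17L24, a deubiquitinase gene (region 441, 1 list).

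More regions lay inside genes than at their ends. The span of any gene overlapped 251 regions (16.7%), and that of protein-coding genes 162 (10.8%), at 146 genes. These genes were long. Their median length was 213.7 kb, against 24.2 kb over all 19974 protein-coding genes, and 76 of them (52.1%) exceeded 200 kb, against 6.99% of all. A long gene offers more bases to overlap, and the share was not corrected for length. Of the 841 regions in bands 7 (0.832%) overlapped a gene, and of the 495 farther than 5 Mb 210 (42.4%).

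A few genes held several regions each. LOC102724250 at the start of chromosome 1 and IGK, the immunoglobulin kappa locus, had 8 each, LOC112268408 on chromosome 18 had 5, FAM230C and DUX4 had 4 each, and MTCO1P12, PCBD2 and PTPRN2 had 3 each. IGK is a locus of over 1 Mb, and its 8 regions lay at 89828595 to 89841168 on chromosome 2. Of these, 7 were called in both inputs, and the number of immunoprecipitated lists touching them ran from 0 to 14. No region overlapped any of 389 annotated immunoglobulin segments. LOC112268408 held region 1266, touched by 16 lists with input folds of 9.89 and 11.6, and region 1269, called in input replicate 2 only and touched by 1. FAM230C had 2 regions touched by 12 lists, region 1111 and region 1112, and 2 touched by 1 and 0.

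Of 34 gene families looked up, 22 had no region inside a member. Among these were 549 rRNA genes and pseudogenes, 1845 snRNA genes and pseudogenes, 500 tRNA genes and 86 replication-dependent histone genes. Over all 59098 genes 245 (0.415%) overlapped a region. Mitochondrial-like pseudogenes were hit at 13 of 466 (2.79%), with 14 regions. DUX4-like genes were hit at 3 of 61 (4.92%), FRG1 and FRG2 genes at 2 of 24, protocadherin genes at 2 of 82, olfactory receptor genes at 2 of 875 and zinc finger genes at 1 of 711. A hit under ribosomal protein genes was RPS6KA2, which encodes a kinase and not a ribosomal protein. The families were counted by symbol, the counts are small, and no test was made of them.

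Of the 14 mitochondrial-like regions 7 lay in 1 stretch. At chr1:629302-634098, inside LOC102724250, 8 regions lay over or beside MTND1P23, MTND2P28, MTCO1P12, MTCO2P12 and MTATP6P1, copies of mitochondrial genes for subunits of complex I, of cytochrome c oxidase and of ATP synthase. Of these 8 regions 7 were called in both inputs. Region 1, over MTND1P23 and MTND2P28, had input folds of 4.81 and 5.10, and region 5, in MTCO1P12, of 5.05 and 5.56. Both were touched by all 16 lists, as was region 4. Region 8, at MTATP6P1, was touched by 15, region 6, at MIR12136, by 5, and region 7, at MTCO2P12, by 2. Neighbouring regions of 1 copied stretch were thus touched by between 1 and 16 lists. The regions that overlapped mitochondrial-like pseudogenes elsewhere were touched by at most 2 lists, for example region 580 at MTND5P11 and region 581 at MTND4P12, both in PCBD2, by 1 and 0, and region 571 at MTCYBP35 by 0. Regions beside such a copy are not counted here, and region 1224, near MTCYBP13, was touched by 16.

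A related group, the MTRNR2-like genes, copies of the mitochondrial large ribosomal RNA, was added after the regions were seen. Of 13 members 4 had a region within 5 kb, and the regions there ranged from strong to weak. Region 957 (chr11:10509206-10509728), 30 bp from MTRNR2L8, had input folds of 16.8 and 17.03 and was touched by 11 lists. Region 1225, in MTRNR2L1, had 15.8 and 10.6 and was touched by 1, whereas the neighbouring region 1224 was touched by 16. Region 422, in MTRNR2L12, was called in input replicate 1 only, with a fold of 5.34, and was touched by 0 lists. Region 423, in the same gene, was called in both inputs, with folds of 17.97 and 10.5, and was touched by 4 lists.

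Near chromosome ends, within 1 Mb of the first or last annotated gene, lay 59 regions. All 16 immunoprecipitated lists touched 7 of them (11.9%), against 29 of the other 436 regions farther than 5 Mb from a band (6.65%), a description without a test. The 59 include all 8 regions of the mitochondrial-like stretch in LOC102724250, and the 7 include its regions 1, 4 and 5. The share at chromosome ends thus leans on this 1 stretch. In DUX4, whose protein is a transcription factor of early embryos, region 515 (chr4:190179333-190179751) had input folds of 10.0 and 11.3 and was touched by 16 lists. Its neighbours were region 514 (10 lists), region 516 (input replicate 1 only, 15 lists) and region 517 (input replicate 2 only, 0 lists). Farther from the end of chromosome 7 and not among the 59, in PTPRN2, a phosphatase-like receptor gene of secretory granules, regions 703, 704 and 705 were touched by 8, 9 and 16 lists.

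At least 1 immunoprecipitated list touched 864 of the 1503 regions (57.5%), 639 (42.5%) were touched by none, and 87 (5.79%) by all 16. The split followed the agreement of the inputs. Of the regions called in both inputs 539 (78.8%) were touched, of those in input replicate 1 only 279 (41.6%) and of those in input replicate 2 only 46 (31.1%). Called in both were 82 of the 87 regions in all 16 lists and 145 of the 639 in none. Regions in all 16 lists were wide, with a median of 305 bp against 98 bp for those in none, and their median −log10 p in input replicate 1 was 49.3 against 13.9, while their median fold was 8.11 against 8.01. Any list touched 54.8% of the regions in bands, 60.5% of those within 5 Mb and 61.0% of those farther.

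**Figure D4:**
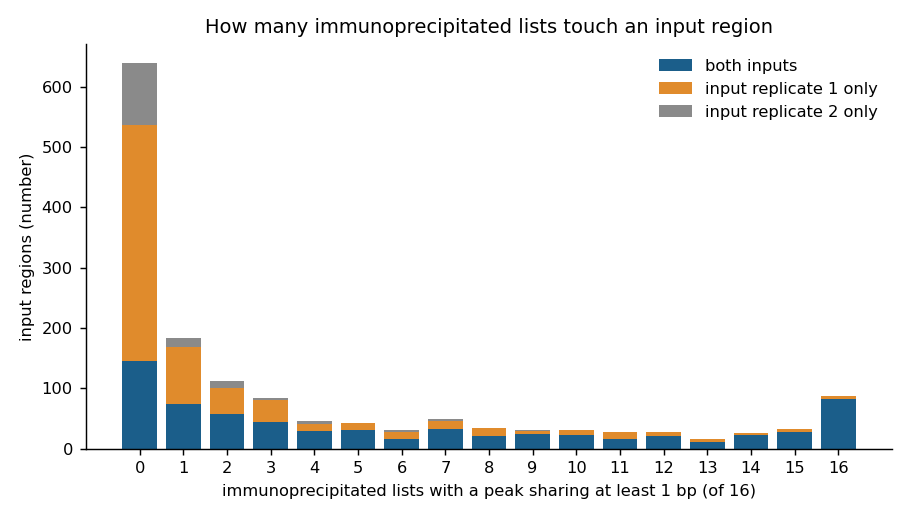
How many immunoprecipitated lists touch an input region. Bars give the number of regions (y) by the number of the 16 lists with a peak that shares at least 1 bp with them (x), split by the input that called them. The bar at 0 holds 639 regions and that at 16 holds 87, of which 82 were called in both inputs.

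Strength in the inputs did not settle the matter for every region. The highest-ranked regions of both inputs that no immunoprecipitated list touched were region 1331 (chr18:19391667-19391781, folds 17.8 and 14.9), region 757 (chr9:43926351-43926494, 15.9 and 15.5) and region 1246 (chr17:26494629-26494741, 16.6 and 11.6), all in bands. The next were region 1115 (chr13:39594245-39594353, 12.7 and 14.9) in LHFPL6, a four-span membrane protein gene, and region 1491 (chrX:95439621-95439744, 13.3 and 13.9). Their ranks, 74.6 to 84.1, lay below those of the top-ranked regions, which were above 99.

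Seen from the immunoprecipitated lists, peaks on input regions were few. Their share ran from 0.276% of Ser2P IAA replicate 1 to 2.31% of Pol II IAA replicate 1. Their number ran from 107 in Ser2P Control replicate 2 to 564 in Pol II Control replicate 2. Between 0.709% and 2.19% of these touching peaks were at the ends of protein-coding genes, 2 to 6 per list, at 11 genes in all. Among them were SMIM10L1 and PRH1 in all 16 lists and NUCB1 in 13. Of the peaks with a summit in a centromere band, 23.5% (Ser2P IAA replicate 1) to 68.2% (Pol II IAA replicate 1) touched an input region. Among the 100 strongest peaks of each list, 1 to 3 did. The touching peaks were at a median within-list percentile of 36.1 to 66.1 by −log10 p.

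The share of the regions that a list touched varied between lists. The numbered Pol II lists touched 20.5% (Control replicate 1), 40.4% (Control replicate 2), 30.2% (IAA replicate 1) and 28.8% (IAA replicate 2). The numbered Tyr1P lists touched 16.8% and 17.96% in Control and 18.96% and 16.4% with IAA, and the Ser2P lists 22.8% and 8.52% in Control and 21.02% and 22.02% with IAA. All 4 Pol II values were above all 4 Tyr1P values. The unnumbered Pol II lists touched 30.6% (Control), 24.5% (IAA), 20.3% (EGF) and 28.7% (IAA+EGF), and with 1 library each they were not tested. The lowest value, 8.52%, came from the shortest list, Ser2P Control replicate 2, with 15377 peaks.

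The Pol II lists touched 30.0% ± 8.16 (SD, n = 4) and the Tyr1P lists 17.5% ± 1.17 (SD, n = 4) of the regions, a difference of 12.4 percentage points (two-sided exact permutation p = 0.0286, the smallest possible). After adjustment over the 3 antibody pairs, which were compared after the values were seen, this exact permutation p was 0.0857 and missed 0.05. Ser2P lists touched 18.6% ± 6.75 (SD, n = 4), and neither the difference from Pol II (exact permutation p = 0.114, adjusted 0.171) nor that from Tyr1P (exact permutation p = 0.857) passed. Tyr1P lists, at 30343 to 38711 peaks, were longer than numbered Pol II lists, at 18125 to 27733. The estimated depth was 6.59 to 7.44 fragments per kb for Tyr1P, 2.94 to 6.06 for numbered Pol II and 3.28 to 13.6 for Ser2P. Among the numbered Pol II lists, Control replicate 1 touched fewest regions and was the shallowest (2.94). Control replicate 2 touched most and had 5.72, while the deepest, IAA replicate 2 (6.06), touched 28.8%. The unnumbered EGF list touched 20.3% at a depth of 6.43. With each list held to its 15377 strongest peaks, Pol II lists touched 13.3% to 29.3% and Tyr1P lists 2.46% to 7.58% of the regions. The part of depth in these shares was not tested.

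Touched by all 4 numbered lists of an antibody were 226 regions for Pol II, 144 for Tyr1P and 115 for Ser2P. Regions touched by all 4 of one antibody and by no numbered list of the others were few among the 817 touched by any numbered list. They were 4 for Pol II (0.490%), 1 for Tyr1P (0.122%) and 1 for Ser2P (0.122%). Over all joined regions of these lists such calls made up 0.00619% for Pol II, 0.338% for Tyr1P and 0.56% for Ser2P. The share of the input regions was thus above that of all regions for Pol II and below it for Tyr1P and Ser2P. These counts are too small to read further and were not tested.

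**Figure D5:**
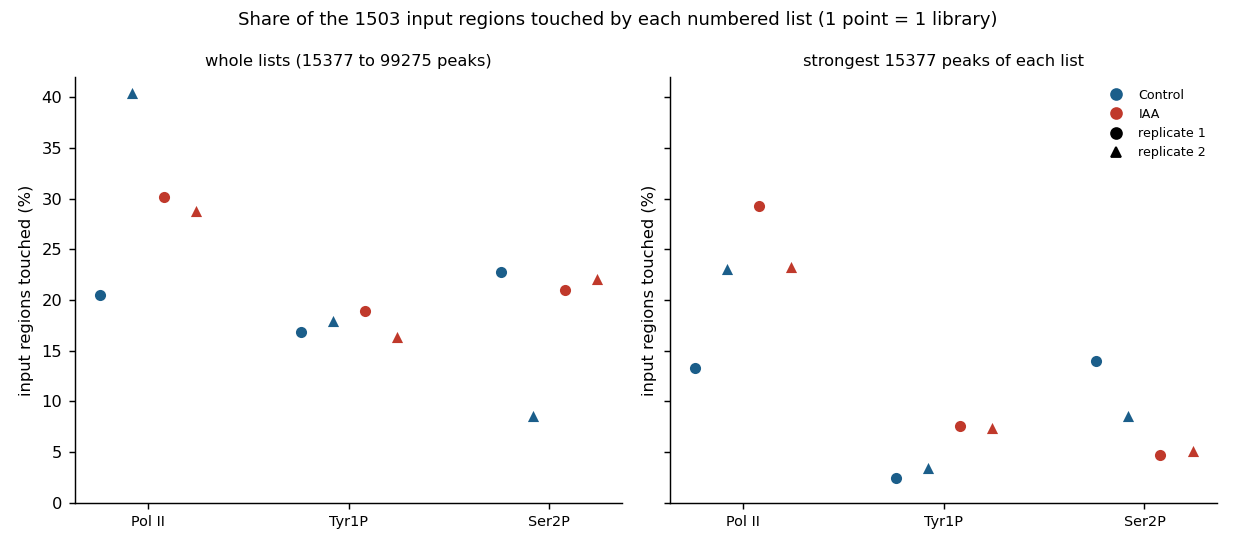
Share of the 1503 input regions touched by each numbered list. Each point is 1 library, by antibody (x), coloured by treatment, with the percent of regions touched (y) for whole lists (left) and for the 15377 strongest peaks of each list (right). All 4 Pol II points lie above all 4 Tyr1P points in both panels.

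In whole lists, no difference between IAA and Control in the share of regions touched was larger than the spread of replicates. Pol II lists touched 30.4% ± 14.1 (SD, n = 2) in Control against 29.5% ± 0.988 (SD, n = 2) after IAA. Tyr1P lists touched 17.4% ± 0.80 (SD, n = 2) in Control against 17.7% ± 1.83 (SD, n = 2) after IAA. Ser2P lists touched 15.6% ± 10.1 (SD, n = 2) against 21.5% ± 0.706 (SD, n = 2). The two-sided exact permutation p was 1 in each, and 2 libraries against 2 cannot go below 0.333. For Pol II, the difference of -0.93 percentage points turned to 9.02 without Control replicate 2 and to 4.39 with lists cut to 18125 peaks. For Ser2P, the difference of 5.89 turned to -1.23 without Control replicate 2 and to -6.32 with lists cut to 15377 peaks. For Tyr1P, 0.27 turned to -0.30 without Control replicate 1 and to -1.03 without IAA replicate 1. Held to their 15377 strongest peaks, the Tyr1P lists touched 2.46% and 3.39% of the regions in Control and 7.58% and 7.39% with IAA. The Pol II lists then touched 13.3% and 23.02% in Control and 29.3% and 23.3% with IAA, and the Ser2P lists 13.97% and 8.52% in Control and 4.72% and 5.12% with IAA. At 15377 peaks the groups overlapped for none of the 3 antibodies, with IAA higher for Pol II and Tyr1P and lower for Ser2P. An exact permutation test of 2 against 2 again cannot go below 0.333. At 18125 peaks, the length of the shortest Pol II list, the Pol II groups overlapped, with means of 24.0% in Control and 28.4% with IAA. The differences between antibodies in the IAA effect were tested in whole lists only and did not pass there. The exact permutation p was 0.833 for Pol II against Tyr1P, 0.5 for Pol II against Ser2P and 0.833 for Tyr1P against Ser2P.

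Region by region, a gained region was touched by both IAA lists and neither Control list, and a lost one the reverse. For Pol II, 19 regions were gained (2.57% of 738 touched) and 22 lost (2.98%), against 3.8% gained and 11.3% lost over all joined regions of the 4 lists. For Tyr1P, 16 were gained (3.78% of 423) and 11 lost (2.60%), against 3.22% and 11.3%. For Ser2P, 61 were gained (13.1% of 467) and 4 lost (0.857%), against 33.0% and 0.454%. Lost shares of the input regions were thus below those of all regions for Pol II and Tyr1P, and the gained share was below for Ser2P. The gained share for Tyr1P was near that of all regions, and the lost count for Ser2P was too small to read. These are descriptions without a test. The Ser2P IAA lists hold 99275 and 88783 peaks and the Control lists 37304 and 15377. With Ser2P lists of equal length, 10 regions were gained and 61 lost. The shares over all joined regions were not taken at equal length, so these 2 counts are not read further.

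The highest-ranked region gained for Pol II was region 602 (chr6:82563458-82563581, input folds 16.7 and 14.9), followed by region 886, region 649, region 199 and region 501, the last in RAP1GDS1. The highest lost for Pol II was region 151 (chr1:124210052-124210193, folds 12.8 and 10.95), and region 288 is the last link of the 63-region chain on chromosome 1. For Tyr1P the highest gained was region 920 (chr10:41875381-41875515, folds 12.7 and 14.2) and the highest lost region 359 (chr2:94502401-94502520, folds 18.5 and 17.7). Region 359 was at the same time gained for Ser2P. The highest gained for Ser2P was region 1001 (chr11:53986951-53987105), with input folds of 38.3 and 31.4, and the highest lost region 1248 (chr17:26594833-26594955, folds 21.1 and 16.5). All of these but region 602, region 501 and region 288 lay in or within 5 Mb of a centromere band.

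As a check of the labelled cell type, 8 of 10 colon epithelium markers had a Pol II peak at a gene end in both numbered Control libraries, EPCAM, CDX2 and KRT8 among them, while VIL1 and LGR5 had none in either. Of 5 blood markers 1, SPI1, had such peaks in both, and of 4 fibroblast markers 0. HBB among the blood markers and VIM among the fibroblast markers had one in Control replicate 2 only. Control replicate 1 held 11830 and Control replicate 2 held 12801 peaks at ends of the 19974 protein-coding genes. The share of all genes with such a peak was not taken, so these counts alone do not tell the cell type. No input region lay at any of the 19 marker genes.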

How the data were processed

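The authors deposited 1 peak list per library for 16 immunoprecipitated and 2 input libraries, so peaks were called per sample. The build was hg38, and MACS2 2.2.7.1, deepTools 3.5.1, Bowtie2 2.3.4.1, Trim Galore 0.6.6 and Picard 2.25.7 were used, per the submitters' processing notes. Options, and whether peaks were called against an input, were not given in the sources used here. Each deposited list gives a fold enrichment (a ratio), a −log10 p, a −log10 q and a score for every peak, with its summit. These values are the authors' and were used to describe, rank or filter peaks within a list.

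Read totals are not in the lists, so depth was estimated. From fold and −log10 p, summit fragments and local background were solved, which succeeded for 100% of the peaks tried. The lowest background shared by at least 5 peaks, divided by the shortest peak width, gave fragments per kb. The highest input stack of fragments was 182 against a limit of 182 for duplicates at 2 per position, so the strongest peaks can be flattened.

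Peaks on chromosomes 1 to 22 and X were read with Python 3.11.15, numpy 2.4.6, pandas 2.3.3 and scipy 1.17.1. Regions touched where they shared at least 1 bp. Genes and sequences came from RefSeq tables on GRCh38.p14, without a genome. Strand was known for 15812 of 19974 protein-coding genes, through the promoter table. Centromere bands were written from general knowledge of the hg38 band map, not from an annotation. Library values were compared by two-sided exact permutation tests with Benjamini-Hochberg adjustment. The scripts were tested on simulated data. Alternatives were the overlap, the windows, a −log10 q of at least 5, equal list length, leaving out libraries and a replicate block.

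Named are the 10 highest-ranked regions of both inputs, the 3 highest of each input alone, the 5 highest in all 16 or none of the other lists, the 10 genes with most regions, up to 4 members per family, the 5 densest windows and the highest gained and lost regions, besides regions at gene ends, the chains and the promoter and microRNA overlaps. The members and lists were chosen with earlier results of these data known. The families MTRNR2-like and FAM230 and the antibody comparisons were added after seeing the data. Results at some named positions are not reported here.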

Additional observations from a re-analysis of the deposited data

Results flagged for a closer look

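Peaks on sequences outside chromosomes 1 to 22 and X were not used above. Input replicate 1 had 221 of them (14.0% of its list) and input replicate 2 had 163 (16.2%), against 0.202% to 0.756% in the 16 immunoprecipitated lists. They lay on unplaced sequences (111 and 82 peaks), on sequences assigned to a chromosome without a position (70 and 50), on chromosome Y (36 and 26) and on the mitochondrial genome (4 and 5).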

How the results depend on the processing

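The differences between inputs and immunoprecipitated lists in gene ends and centromeres kept their direction and passed under other windows, thresholds, gene sets and equal list length. Without 1 input, 1 library against 16 cannot go below an exact permutation p of 0.0588. The differences in percentage points were then -40.9 to -40.4 for gene ends, 60.2 to 63.3 for centromeres and 41.4 to 42.6 for clustering. With a replicate block they were -40.8, 61.7 and 41.7 (exact permutation p = 0.5 each, the smallest for 2 pairs). Clustering turned to -8.37 in whole lists. The shared percentage of input peaks moved to 59.8 with an overlap of at least 50% of each peak and to 60.6 with peaks within 1 kb joined.

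For the share of regions touched, IAA against Control, leaving out a library gave -10.9 to 9.02 for Pol II, -1.03 to 1.56 for Tyr1P and -1.23 to 13.0 for Ser2P. Lists were also cut to the shortest of their antibody, 18125 peaks for Pol II, 30343 for Tyr1P and 15377 for Ser2P. This turned Pol II to 4.39 and Ser2P to -6.32 and raised Tyr1P to 3.16. For Ser2P and Tyr1P the exact permutation p was 0.333, the smallest possible, and for Pol II it was larger. A summit inside the region turned Tyr1P to -0.40. Replicate numbers did not pair the libraries. Deviations of same-numbered libraries correlated at 0.04 for Pol II, -0.01 for Tyr1P and -0.08 for Ser2P, and the replicate block left -0.93, 0.27 and 5.89 and changed no call. Of 24 alternative counts of gained and lost regions, 13 differed from the main count by more than 1.5 times, for example 34 gained and 13 lost for Pol II at equal list length, and 36 gained and 1 lost for Ser2P, and 8 gained for Tyr1P, with a summit inside the region. Restricted to the 684 regions of both inputs, 8 were gained and 13 lost for Pol II. Counts under this restriction are among the 24 and cannot rise, because it only removes regions. For none of the alternative counts was the share over all joined regions taken.

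Leaving out a library gave 8.97 to 15.6 for Pol II against Tyr1P, 7.92 to 14.6 for Pol II against Ser2P and -4.40 to 0.34 for Tyr1P against Ser2P. Without any 1 Tyr1P library the exact permutation p for Pol II against Tyr1P was 0.0571. Adding the 4 unnumbered Pol II libraries made Pol II against Ser2P 9.42 (permutation p = 0.0343), without Pol II Control replicate 1 it was 14.6, and without Ser2P Control replicate 2 Tyr1P against Ser2P was -4.40 (exact permutation p = 0.0286 in both). The cause of these shifts was not tested. The lists hold called peaks only, so a region without a peak is one where none passed the authors' threshold.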
